A study of Mus musculus with 18 samples.

Results

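Collagen, laminin and integrin genes were followed in E14 mouse embryonic stem cells (mESCs) with or without Nsd1, a histone H3 lysine methyltransferase. The members were all genes of the expression table with a symbol of the form Col2a1, with a symbol of Lama, Lamb or Lamc plus a number, or with a symbol of Itga or Itgb plus a number or a single letter. This rule took 76 of 20703 genes, of which 42 were collagen, 11 laminin and 23 integrin genes, and it used symbols alone. Col4a3, Col19a1, Itgad and Itgb6 were not analysed here, and Itga2b, Itgb1bp1, Itgb1bp2, Itgb3bp and Itgbl1 do not have a symbol of that form.

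PolyA RNA was sequenced from WT cells and from 2 lines named Nsd1-KO-1 and Nsd1-KO-2 (KO-1 and KO-2 below), each a single clone with a homozygous deletion of exon 5 of Nsd1, made in E14 cells that carried a 3×Flag tag at the end of both Nsd1 alleles. The labels call the control WT. The study's immunoblots used a WT with the tag, and whether the sequenced WT cells had it was not given in the sources used here. Before differentiation, cells were kept with LIF on a layer of inactivated mouse embryonic fibroblasts (MEFs) or on gelatin, and the sources used here do not say which of the 2 held for the day 0 libraries. Differentiation was started by removing LIF and MEFs, and cells were collected at day 2 and day 4. Each line had 2 biological replicates at each day, which made 18 libraries, with 2 WT and 4 KO libraries per day and between 9309874 and 23921193 counts on genes per library.

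Collagens are trimers of chains wound into a triple helix: fibrillar collagens such as types I, II, III and V form the fibrils of connective tissue and cartilage, whereas type IV forms the net of basement membranes. Laminins are heterotrimers of an alpha, a beta and a gamma chain and the first scaffold of the basement membranes that form in the early embryo. Integrins are dimers of an alpha and a beta chain at the cell surface that bind these proteins and fibronectin and connect them to the actin cytoskeleton.

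Levels are given as normalized counts, the counts behind the deposited values divided by a size factor per library. Differences are log2 differences of the deposited values, which carry a variance stabilizing transformation (VST) and are compressed at low counts, so that a fold of normalized counts is given beside them. A gene was called where limma gave an adjusted p (over all 20703 genes) below 0.01 together with a log2 difference above 0.58 in either direction. Nsd1 itself, the check of the genotype, was at 3374 and 3659.9 in WT, 837 and 711 in KO-1 and 689 and 635 in KO-2 at day 0. At day 4 it was at 2425 and 2111 in WT, 1103 and 910.1 in KO-1 and 575 and 684 in KO-2. It was lower in every KO library than in both WT libraries on all days, by 4.90-fold at day 0, 3.25-fold at day 2 and 2.77-fold at day 4, and its transcript was not absent.

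Of the 76 members, 24 were called between KO and WT on at least one day (31.6%, against 12.2% of all genes), 52 on none and 0 on all 3 days (against 0.807%). At day 0, 9 members were higher in KO (11.8%, against 1.73% of all genes) and 2 lower (2.63%, against 0.879%). At day 2, 10 were higher (13.2%, against 4.01%) and 2 lower (2.63%, against 2.37%). At day 4, 4 were higher (5.26%, against 3.67%) and 8 lower (10.5%, against 3.91%). The median log2 difference of the members was 0.05, 0.03 and -0.11 at day 0, 2 and 4, where that of all genes was 0.00, -0.02 and 0.00. Among the members, 12 had a mean normalized count under 10 and 44 under 100, a range in which the VST compresses differences. Of the 24 members called on at least 1 day, 20 had a mean over 100, so few calls came from that range. On the counts behind the values, limma-voom called 26 members at day 0, 18 higher and 8 lower (34.2%, against 13.3% of all genes), 27 at day 2, 14 higher and 13 lower (35.5%, against 23.9%) and 37 at day 4, 13 higher and 24 lower (48.7%, against 23.9%).

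**Figure D1:**
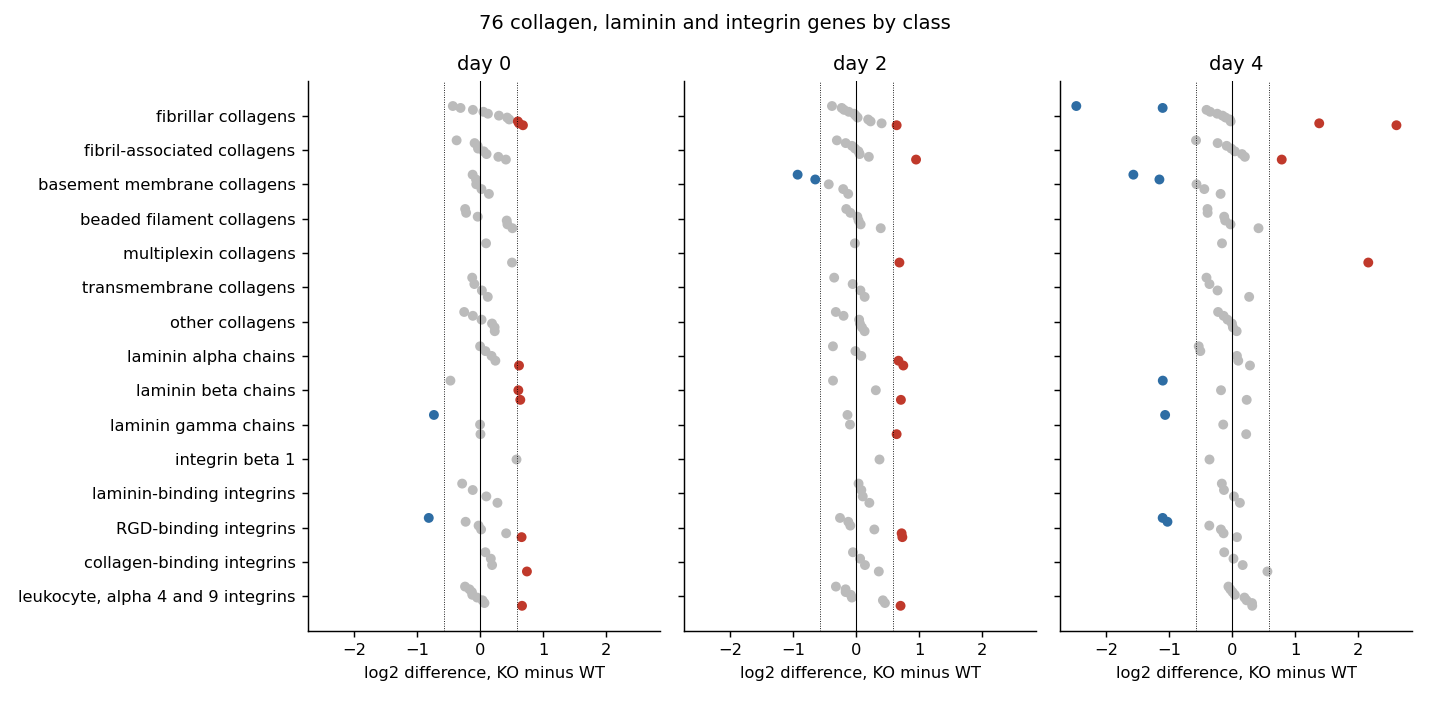
Log2 difference of the VST values, KO minus WT, for each of the 76 members at day 0, 2 and 4 (x axis), by class (y axis). Each point is a gene, red and blue points are genes called higher and lower, gray points were not called, and dotted lines mark the threshold of 0.58. At day 4 the points spread from -2.48 (Col5a1) to 2.61 (Col2a1), both fibrillar collagens, and no laminin or integrin is red.

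The fibrillar collagens went both ways at day 4, when 2 of 11 were called higher (Col2a1 and Col5a2) and 2 lower (Col5a1 and Col1a1), against 3.67% and 3.91% of all genes. Col2a1 encodes the chain of type II collagen, the main collagen of cartilage, and its rise in KO cells was known before this set of genes was chosen. It is located at chr15:97975602-98004695 of GRCm38. At day 4 its normalized count was 299.9 and 236 in WT, 3671 and 3471 in KO-1 and 4964 and 4784 in KO-2. The 4 KO libraries were all far above both WT libraries, with KO-2 above KO-1, and the mean was 15.8-fold higher in KO (log2 difference 2.61 ± 0.10 (SE), adjusted p = 3.85e-14 by limma). At day 2 it was 477 and 543 in WT, 899 and 1060.2 in KO-1 and 1164 and 1186 in KO-2, 2.11-fold higher in KO and called (log2 difference 0.64 ± 0.10 (SE), adjusted p = 4.18e-05). At day 0 it was 226 and 191 in WT, 430.4 and 478 in KO-1 and 358 and 407 in KO-2, again without overlap and 2.01-fold higher, but the log2 difference of 0.43 was under the threshold. At day 2, KO-1 alone against WT gave 0.56 and quantile normalization 0.54, and neither was called. The Col2a1 counts of KO libraries were higher at each later day than at the one before, whereas the WT count at day 4 lay between those of day 0 and day 2.

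**Figure D2:**
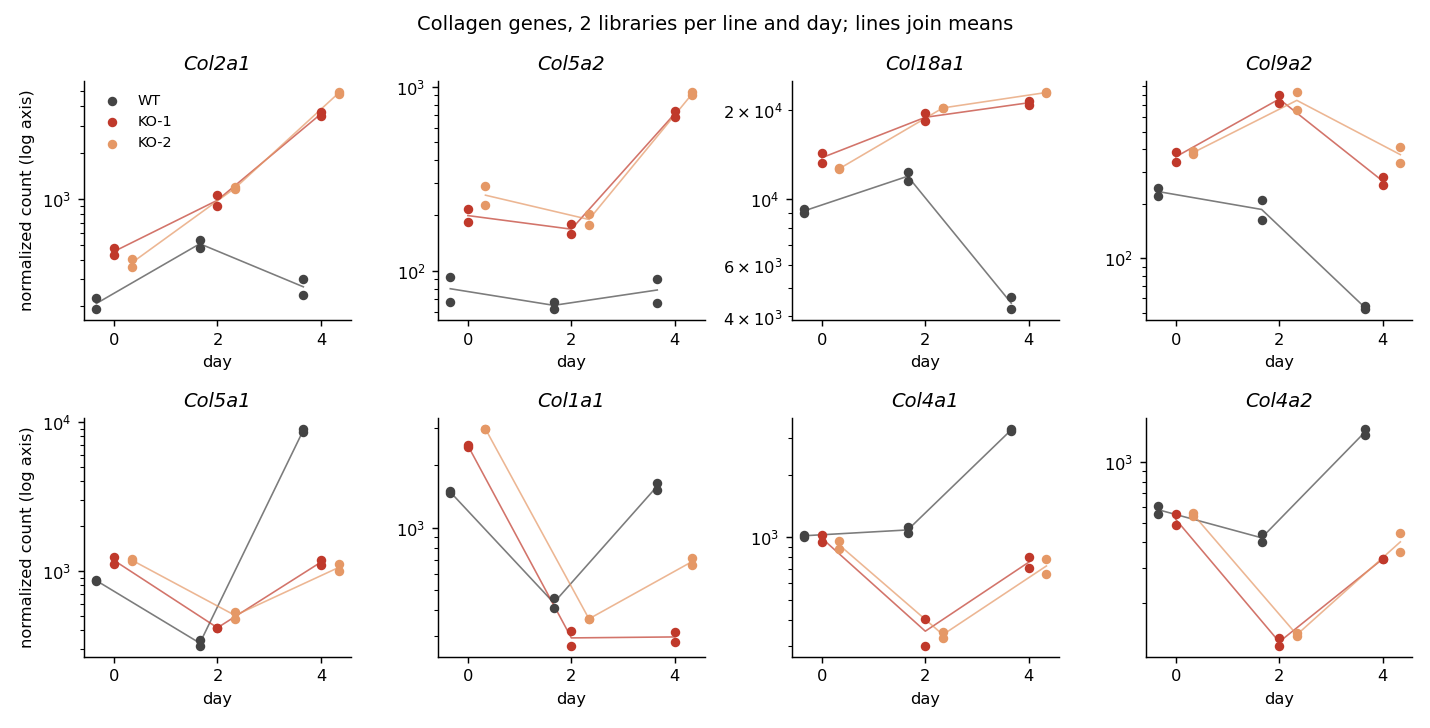
Normalized counts (y axis, logarithmic) of 8 collagen genes by day (x axis). Each point is a library, and lines join the means of the 2 replicates of WT (gray), KO-1 (red) and KO-2 (orange). The upper row holds the 4 genes called higher in KO at day 4. In the lower row, Col5a1 at day 4 is at 8556 to 8992 in WT and at 999 to 1188 in KO. In KO it fell from day 0 to day 2 (log2 difference -0.82) and rose from day 2 to day 4 (0.75).

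Markers of the cartilage lineage were set beside Col2a1. None of 8 such markers in the table was called by limma at day 4, when 3.67% of all genes were higher and 3.91% lower (2 others of the list were not analysed here). Of the 8, 5 had an unadjusted p under 0.05, against 9142 of all 20703 genes, and the median log2 difference of the 8 was 0.05. Their summed count at day 4 was 278 and 273 in WT, 241 and 281 in KO-1 and 249.9 and 237 in KO-2, so that the genotypes overlapped. The sum also overlapped at day 0. At day 2 it was lower in every KO library, with 414 and 383 in WT, 257 and 286 in KO-1 and 363 and 364 in KO-2. Sox9, the transcription factor that drives Col2a1 in chondrocytes, was at 24.2 and 27.8 in WT, 6.77 and 3.85 in KO-1 and 4.20 and 7.30 in KO-2, lower in every KO library than in WT. Acan, the cartilage proteoglycan aggrecan and over all libraries the most abundant gene of the list, was at 16.1 and 20.2 in WT, 113 and 124 in KO-1 and 96.6 and 105 in KO-2, 6.04-fold higher in KO, with a log2 difference of 0.48 that was under the threshold. On the counts, limma-voom called 2 of the 8 markers higher and 2 lower at day 4, against 23.9% of all genes in either direction. Sox1, a transcription factor of the early neural plate, was at 6.04 and 0 in WT, 505 and 520.4 in KO-1 and 705 and 662 in KO-2 and was called (log2 difference 1.72 ± 0.07 (SE), adjusted p = 8.04e-14). It was 1 of 10 neuroectoderm markers, of which 1 was called higher (Sox1) and 1 lower (Nes) at day 4, against 3.67% and 3.91% of all genes. Their summed count at day 4 was 8804 and 7987 in WT, 5949 and 5862 in KO-1 and 4198 and 4342 in KO-2, with Zic2 as the most abundant gene. At day 2 the sum was 8183 and 9266 in WT, 4352 and 4860 in KO-1 and 3866 and 4061 in KO-2. The order was the other way at day 0, with 1604 and 1666 in WT, 4686 and 4080 in KO-1 and 3463 and 3741 in KO-2. Whether Col2a1 and Sox1 RNA came from the same cells was not tested. In these bulk libraries, more cells with a transcript and more of it per cell cannot be told apart, here and for every gene that follows.

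Among the 5 genes with the pattern most like that of Col2a1 over the 18 libraries, by Pearson's r of the VST values, were Clvs2 (r = 0.980), Fzd8 (0.979), Cpeb1 (0.966) and Irx5 (0.963). They were taken from the whole table, and the points share libraries, clones and days. Fzd8, a receptor for Wnt ligands, rose from 131 ± 23.0 at day 0 to 659 ± 40.8 normalized counts at day 4 in KO (SD, n = 4), and in WT it was 134 ± 5.15 and 131 ± 19.4 (SD, n = 2). No collagen, laminin or integrin gene was among these 5.

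Type V collagen, which nucleates fibrils of type I collagen, is built mostly from the chains of Col5a1 and Col5a2, and these 2 genes moved in opposite directions. Col5a1 (chr2:27886425-28039514 of GRCm38) was at 8992 and 8556 in WT, 1096 and 1188 in KO-1 and 1102 and 999 in KO-2 at day 4. Both WT libraries were above all KO libraries, the 4 KO libraries lay close together, and KO was 8-fold lower (log2 difference -2.48 ± 0.06 (SE), adjusted p = 1.15e-17 by limma), the largest fall among the members by VST difference. At day 0 and day 2 the order was the other way, with KO 1.37-fold and 1.40-fold higher and no overlap, although neither difference passed the fold threshold. Col5a2 (chr1:45374321-45503282 of GRCm38) was at 90.6 and 66.9 in WT, 741 and 688 in KO-1 and 937 and 900.2 in KO-2 at day 4. Every KO library was above WT and the mean was 10.4-fold higher (log2 difference 1.39 ± 0.07 (SE), adjusted p = 3.45e-12). It was also 2.86-fold higher at day 0 and 2.76-fold at day 2 without overlap, with log2 differences of 0.46 and 0.41 that were not called. Col3a1, which encodes type III collagen and is the neighbor of Col5a2 on chromosome 1, was at 211 and 151 in WT, 118 and 153 in KO-1 and 226 and 198 in KO-2 at day 4, so that the genotypes overlapped. Col5a3, the third chain of type V, was at 278 to 308 in WT and 120.4 to 139 in KO at day 0, 2.31-fold lower in KO without a call, and under 50 in all libraries of day 2 and day 4.

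Col1a1 encodes the more abundant chain of type I collagen, the main collagen of bone and skin. At day 4 it was at 1644 and 1522 in WT, 282 and 313 in KO-1 and 717 and 658 in KO-2. All KO libraries were below both WT libraries, by 3.22-fold on average (log2 difference -1.11 ± 0.14 (SE), adjusted p = 1.44e-06 by limma), and KO-1 was below KO-2. On the VST values Col1a1 was the only member called between the clones at day 4 (KO-1 minus KO-2, log2 difference -0.61 ± 0.05 (SE), adjusted p = 2.30e-06, where 0.251% of all genes were called), and no member was called without KO-2 replicate 1 or in a fit of the 4 KO libraries of day 4 alone. By limma-voom Col1a2 was called as well (-1.20, adjusted p = 3.27e-05), where KO-1 was also below KO-2. The summed count of 19 markers of fibroblasts outside the collagens had the same order of the clones at day 4, 2708 and 2958 in KO-1 against 4169.8 and 4053 in KO-2, and their part in the clone difference was not tested. Col1a2, the other chain of type I, had the same order at day 4 with 360.3 and 359 in WT, 107 and 118 in KO-1 and 262 and 261 in KO-2, but its log2 difference of -0.41 was not called. Per kilobase of exon, Col1a1 exceeded Col1a2 by a ratio of 4.43 ± 0.0319 in WT and 4.22 ± 0.277 in KO at day 0. The length was that of all annotated exons together, 6563 bases for Col1a1 and 12426 for Col1a2. The size of the ratio depends on these lengths, and its comparison between groups does not. At day 4 the ratio was 8.34 ± 0.428 in WT and 4.99 ± 0.169 in KO (SD, n = 2 WT and 4 KO libraries), where the lowest WT ratio was above the highest KO ratio.

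At day 0, collagens of fibroblasts were among the members that stood higher in KO. Of the 8 taken as a group (Col1a1, Col1a2, Col3a1, Col5a1, Col5a2, Col6a1, Col6a2 and Col6a3), all had a positive log2 difference and 3 were called higher (against 1.73% of all genes), with a median of 0.49. Col1a1 was at 1471 and 1493 in WT, 2509 and 2455 in KO-1 and 2994 and 2971 in KO-2, 1.84-fold higher in KO (log2 difference 0.68 ± 0.14 (SE), adjusted p = 7.88e-04 by limma). Col1a2 was at 626 and 642 in WT, 1176 and 1163 in KO-1 and 1231 and 1326 in KO-2, 1.93-fold higher (log2 difference 0.60 ± 0.09 (SE), adjusted p = 6.14e-05). Col3a1 was at 107 and 92.1 in WT, 371 and 284 in KO-1 and 333 and 356 in KO-2, 3.38-fold higher (log2 difference 0.62 ± 0.07 (SE), adjusted p = 1.51e-06). In each of these genes all 4 KO libraries were above both WT libraries, and limma-voom called 7 of the 8, all higher, against 13.3% of all genes in either direction. The calls of Col1a1 and Col1a2 were near the thresholds: Col1a1 was not called without WT replicate 1 (0.67) or WT replicate 2 (0.69), nor Col1a2 without KO-2 replicate 2 (0.57) or under quantile normalization (0.55). For KO-1 alone neither was called (0.57 and 0.56), nor on log2 of the normalized count plus 1 (0.88 and 0.95). The 3 chains of type VI collagen, which forms beaded filaments around cells, were 2.45-fold (Col6a1), 2.33-fold (Col6a2) and 2.37-fold (Col6a3) higher without overlap, with log2 differences between 0.42 and 0.51 that were not called. The summed count of the 8 genes was 1214 and 1084 in WT, 1117 and 1153 in KO-1 and 1412 and 1369.8 in KO-2 at day 2, against 3458 and 3623 in WT, 6366 and 6150.2 in KO-1 and 6885 and 7086 in KO-2 at day 0. By day 4 the order was the reverse of day 0, with 11540 and 10862 in WT, 2410 and 2514 in KO-1 and 3305 and 3072 in KO-2. Col5a1 was the most abundant of the 8 over all libraries and made up most of the WT sum at day 4. The reversed order of the sum did not hold for each gene, since at day 4 Col5a2 was higher in KO and Col3a1 overlapped, as given above. At day 2 the genotypes overlapped and none of the 8 was called by limma, when 4.01% of all genes were higher and 2.37% lower. Of the 8, 3 had an unadjusted p under 0.05, against 10823 of all 20703 genes. By limma-voom 1 of the 8 was called, against 23.9% of all genes.

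Markers of fibroblasts outside the collagens were set beside these genes. Of 19 in the table, 17 had a positive log2 difference at day 0, with a median of 0.11. On the VST values 1 was called higher (Bgn) and 1 lower (Pdgfrb), against 1.73% and 0.879% of all genes. By limma-voom 7 were higher and 1 lower, against 13.3% of all genes in either direction. Only 12 of the 19 had a WT mean of at least 10. Since the VST compresses differences at low counts, this median cannot be set against the 0.49 of the collagens. Their summed count at day 0 was 3276 and 3029.8 in WT, 4059.9 and 4185 in KO-1 and 4887 and 5023 in KO-2, higher in every KO library than in WT. At day 2 it was 2047 and 1961 in WT, 2128 and 2172 in KO-1 and 2528 and 2365 in KO-2. By day 4 the sum was 4171 and 4040.4 in WT, 2708 and 2958 in KO-1 and 4169.8 and 4053 in KO-2, so that WT was above its own values of day 0 and KO-1 was below KO-2 and WT. Prrx1, a transcription factor of mesenchyme and one of the markers taken as defining, was at 57.0 and 57.5 in WT, 161 and 156 in KO-1 and 169 and 203 in KO-2 at day 0, 3.00-fold higher in KO with a log2 difference of 0.42 that was not called, and between 2.53 and 19.6 at the later days. Bgn, the proteoglycan biglycan, was 2.07-fold higher at day 0 (log2 difference 0.60 ± 0.07 (SE), adjusted p = 2.03e-06). Acta2, smooth muscle actin and the most abundant of the markers at day 0, was at 582 and 583 in WT, 838 and 856 in KO-1 and 1019 and 1033 in KO-2. Of the other defining markers, Postn was at 33.5 and 25.9 in WT, 28.9 and 62.2 in KO-1 and 55.0 and 63.6 in KO-2, Lum was listed at 0 in all 6 libraries of day 0, Dcn and Ogn were at most 10.6 and 11.5, and Fap was not analysed here. Pdgfrb, a receptor of mesenchymal cells, was 2.87-fold lower in KO (log2 difference -0.67 ± 0.06 (SE), adjusted p = 9.23e-08), and Thy1 overlapped. The part of feeder RNA in the collagen counts of day 0 was not tested, and at that day RNA of any MEFs and of the mESCs cannot be told apart.

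**Figure D3:**
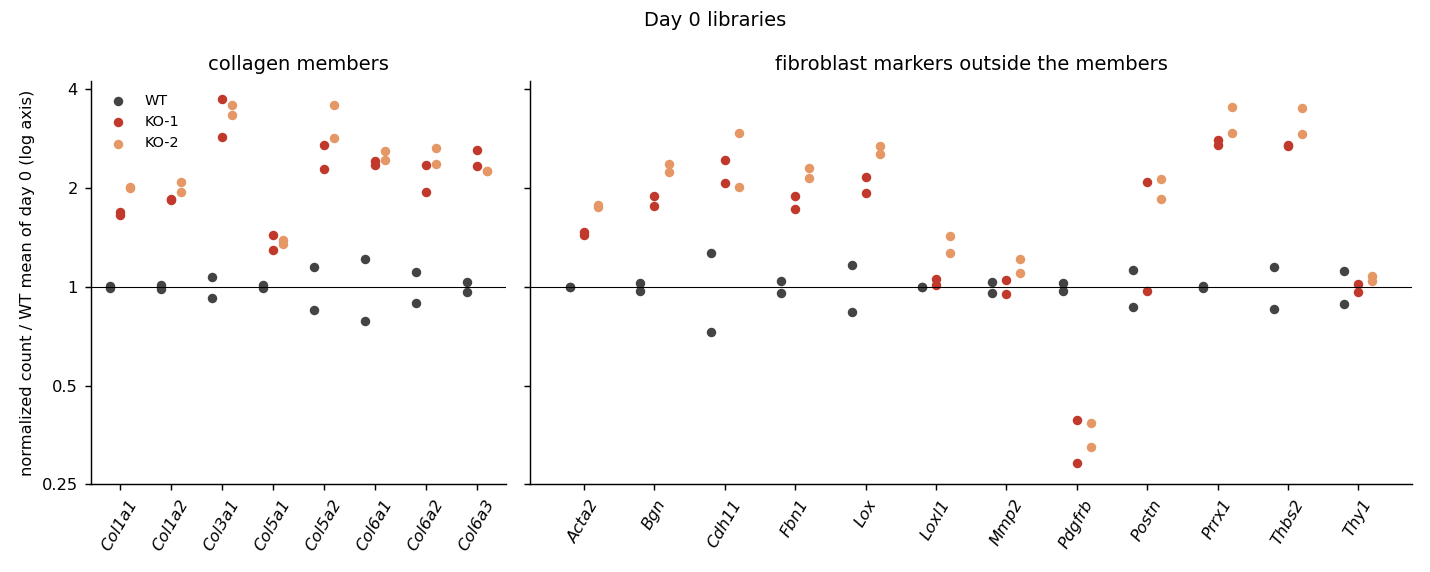
Day 0 normalized counts of 8 collagen members (left) and of the 12 fibroblast markers with a WT mean of at least 10 (right), each divided by the WT mean of that gene (y axis, logarithmic). Each point is a library of WT (gray), KO-1 (red) or KO-2 (orange). All KO points of the collagens are above the WT points, as are those of Prrx1 and Bgn, whereas Pdgfrb is lower in KO and Thy1 overlaps.

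At day 4 the WT counts of Col1a1 were 1522 to 1644, against 1471 to 1493 at day 0. The summed fibroblast markers of WT were also above their day 0 values, as given above, whereas Prrx1 was at 10.1 and 2.53 in WT. The mesoderm markers stood apart between the genotypes at that day. Of 10 markers, 9 were called lower in KO and 0 higher (against 3.91% and 3.67% of all genes), with a median log2 difference of -2.09. All 10 had been called higher in WT at day 4 than at day 0, against 7.68% of all genes. Their summed count at day 4 was 35351 and 34372 in WT, 1135 and 1106 in KO-1 and 671 and 727 in KO-2. The most abundant, T (Brachyury), the transcription factor of the primitive streak, was at 16441 and 16055 in WT, 209.7 and 226 in KO-1 and 60.2 and 62.9 in KO-2. The mesoderm sum was lower in KO at day 4, as were Col5a1, Col1a1, Col4a1 and Col4a2, but it was higher in KO-1 than in KO-2, the reverse of Col1a1. At day 0 it was 236 and 252 in WT, 139.7 and 180.1 in KO-1 and 201 and 216 in KO-2. At day 2 it was 389 and 363 in WT, 178 and 174 in KO-1 and 183 and 223 in KO-2. On both days it was lower in every KO library than in WT, whereas Col5a1 was higher in every KO library. The part of these markers in the collagen differences was not tested.

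Type IV collagen was lower in KO at day 2 and day 4. The chains of Col4a1 and Col4a2 make up the net of every basement membrane. Col4a1 was at 3331 and 3235 in WT, 802 and 714 in KO-1 and 665 and 788 in KO-2 at day 4, 4.42-fold lower in KO (log2 difference -1.57 ± 0.06 (SE), adjusted p = 2.89e-14 by limma). Col4a2 was at 1464 and 1358 in WT, 332 and 331 in KO-1 and 446 and 359 in KO-2, 3.84-fold lower (log2 difference -1.16 ± 0.06 (SE), adjusted p = 1.06e-12). The KO libraries of both genes were all below WT, and the same held at day 2, when Col4a1 was 3.13-fold (log2 difference -0.93 ± 0.06 (SE), adjusted p = 2.83e-10) and Col4a2 3.14-fold lower (log2 difference -0.65 ± 0.06 (SE), adjusted p = 1.48e-08). At day 0 the genotypes overlapped, with log2 differences of -0.06 and -0.06. Per kilobase of exon, Col4a1 exceeded Col4a2 by a ratio of 2.06 ± 0.0669 in WT and 1.83 ± 0.354 in KO at day 4 (SD, n = 2 and 4), and these ratios overlapped. The X-linked chains Col4a5 and Col4a6, found in the basement membranes of kidney and smooth muscle, had low counts, and every KO library lay below WT at day 4 (15.4 to 27.4 against 125 to 157 for Col4a5, and 3.65 to 9.02 against 61.9 to 71.4 for Col4a6), with log2 differences of -0.57 and -0.44 that were not called on the VST values. Both were chosen after their values were seen. Of the 5 basement membrane collagens of type IV in the table, 0 were higher and 2 lower at day 2 and at day 4 on the VST values, where 2.37% and 3.91% of all genes were lower. By limma-voom 4 were lower at day 2 and 5 at day 4, against 13.6% and 13.0% of all genes, and the median of all genes was at -0.14 at day 2 on that scale.

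Markers of the endoderm that secretes much of the early basement membrane were set beside these genes. Of 12 primitive and parietal endoderm markers, 0 were called higher and 4 lower at day 4 (against 3.67% and 3.91% of all genes), with a median log2 difference of -0.31. Their summed count at day 4 was 12109.7 and 12043 in WT, 3990.5 and 4480.0 in KO-1 and 5925 and 5794 in KO-2, lower in every KO library than in WT. It was also lower in every KO library at day 0, with 4598 and 4453 in WT, 3411 and 3911 in KO-1 and 4122 and 4079 in KO-2, when Col4a1 and Col4a2 overlapped, and at day 2, with 4522 and 4009.9 in WT, 3167 and 2924 in KO-1 and 3327 and 3139 in KO-2. Sparc, a collagen-binding matrix protein and the most abundant of them, was at 9312 and 9314 in WT, 3472 and 3939.7 in KO-1 and 5043 and 5009 in KO-2. Gata6 and Sox17, transcription factors of the list, were at 2.26 to 17.5 and 0 to 7.69 in KO against 513 to 573 and 20.1 to 21.5 in WT. The paper names Gata6 among factors of heart formation, so these genes do not single out this endoderm. Of 10 markers of embryonic stem cells, 7 were called higher and 1 lower in KO at day 4, against 3.67% and 3.91% of all genes. Their summed count was 18806 and 19348 in WT, 26031 and 26912 in KO-1 and 25374 and 24832 in KO-2, with Tdgf1 as the most abundant over all libraries. Pdgfra is on both the endoderm and the mesoderm list, and the part of these lists in the type IV difference was not tested.

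Col4a1 and Col4a2 lie head to head on chromosome 8, with start sites 21 bases apart in GRCm38, the closest pair among the members. Since they fell together, their RefSeq promoter windows (250 bases before to 50 bases after each start, GRCm38.p6) are shown. RefSeq windows were found for 55 of the 76 members, and Col2a1 was not among them. The window of Col4a1 is chr8:11312777-11313076 on the minus strand and that of Col4a2 chr8:11312555-11312854 on the plus strand, and they share 78 bases. Capitals mark GC boxes (GGGCGG) and CCAAT boxes (CCAAT) on either strand, both of which are known promoter elements.
Col4a1: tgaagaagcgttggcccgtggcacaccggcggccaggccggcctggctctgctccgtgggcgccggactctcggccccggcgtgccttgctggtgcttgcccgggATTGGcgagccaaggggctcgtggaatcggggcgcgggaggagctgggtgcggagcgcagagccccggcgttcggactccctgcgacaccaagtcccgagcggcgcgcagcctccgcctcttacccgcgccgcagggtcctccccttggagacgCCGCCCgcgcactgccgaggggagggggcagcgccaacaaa
Col4a2: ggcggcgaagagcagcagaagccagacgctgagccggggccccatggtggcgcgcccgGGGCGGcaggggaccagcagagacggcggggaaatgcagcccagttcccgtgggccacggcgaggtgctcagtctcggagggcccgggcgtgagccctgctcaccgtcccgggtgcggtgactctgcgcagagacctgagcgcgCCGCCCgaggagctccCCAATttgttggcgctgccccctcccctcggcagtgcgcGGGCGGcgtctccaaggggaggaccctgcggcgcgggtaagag
The window of Col4a1 held 1 GC box and 1 CCAAT box, that of Col4a2 3 GC boxes and 1 CCAAT box, and the TATA box (TATAAA) was in neither. The GC box of Col4a1 and the last one of Col4a2 are the same bases, in the shared stretch. Of all 32851 windows of this length, 35.7% held a GC box, 37.4% a CCAAT box and 13.6% a TATA box on either strand. The GC content was 74.0% and 73.7%, against a median of 52.7% over all windows. A match is a description of the sequence and not a bound site. Col4a6 and Col4a5 are also head to head, with 1309 bases between their start sites.

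Col18a1, the core of a collagen with heparan sulfate chains in basement membranes, had the highest count per kilobase of the collagens in all groups but WT at day 4. Its counts at day 4 were 4649 and 4234 in WT, 21596 and 20884 in KO-1 and 22909.5 and 23116 in KO-2. The 4 KO libraries were all above WT, by 4.98-fold (log2 difference 2.17 ± 0.07 (SE), adjusted p = 2.02e-15 by limma). At day 2 the fold was 1.65 (log2 difference 0.69 ± 0.07 (SE), adjusted p = 1.66e-07) and at day 0 1.45 with a log2 difference of 0.51 that was not called. Between day 2 and day 4 it fell 2.69-fold in WT and was 1.12-fold higher in KO, where the change was not called. Col9a2, a chain of type IX collagen that sits on the fibrils of type II, was at 210.2 and 162 in WT, 722 and 795 in KO-1 and 830.1 and 661 in KO-2 at day 2, 4.04-fold higher in KO (log2 difference 0.95 ± 0.07 (SE), adjusted p = 1.57e-09). At day 4 it was 253 to 411 in KO and 52.3 to 54.3 in WT, 6.01-fold higher and called (log2 difference 0.79 ± 0.07 (SE), adjusted p = 1.37e-08), while KO counts had fallen since day 2.

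Among the 11 laminin genes, 3 were called higher and 1 lower at day 0 (against 1.73% and 0.879% of all genes), 4 higher and 0 lower at day 2 (against 4.01% and 2.37%), and 0 higher and 2 lower at day 4 (against 3.67% and 3.91%). Lama1, Lamb1 and Lamc1 encode the chains of laminin 111, the first laminin of the embryo, and Lama5 the alpha chain of laminin 511, on which pluripotent cells are commonly grown. Lama5 was at 4962 and 4847 in WT, 9559 and 7759.5 in KO-1 and 7150.0 and 7202 in KO-2 at day 0, 1.61-fold higher in KO without overlap (log2 difference 0.62 ± 0.13 (SE), adjusted p = 7.82e-04 by limma). It was not called without KO-1 replicate 1 (0.53), WT replicate 1 (0.63) or WT replicate 2 (0.60), nor for KO-2 alone (0.50) or in a fit of the 6 libraries of day 0 alone (0.62). At day 2 Lama5 was at 4450.2 and 5139.6 in WT, 7164 and 8522 in KO-1 and 9121 and 9241 in KO-2, 1.78-fold higher (log2 difference 0.75 ± 0.13 (SE), adjusted p = 5.93e-05), and at day 4 the difference of 0.28 was not called.

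Lamb1 was at 2991 and 2867 in WT, 5335 and 4664 in KO-1 and 4723 and 4448 in KO-2 at day 0, 1.64-fold higher in KO without overlap (log2 difference 0.61 ± 0.06 (SE), adjusted p = 4.90e-07 by limma), and the call was lost without KO-1 replicate 1 (0.56), for KO-2 alone (0.55) and under quantile normalization (0.58). Lamb2, a beta chain of later basement membranes, was at 788 and 799.9 in WT, 1670.2 and 1496 in KO-1 and 1496 and 1469.8 in KO-2 at day 0, 1.93-fold higher (log2 difference 0.64 ± 0.06 (SE), adjusted p = 1.47e-07), and the call was lost under quantile normalization, with 0.58. Both were above WT in all KO libraries, and Lamb2 was so at day 2 as well, 2.53-fold (log2 difference 0.71 ± 0.06 (SE), adjusted p = 1.26e-08). Lamc1, the gamma chain that most laminins share, did not differ at day 0 beyond its spread (11470.5 and 11412 in WT, 13399 and 11783 in KO-1 and 10399 and 10396 in KO-2). At day 2 it was 5837 to 7594 in KO and 4033 to 4235 in WT, 1.65-fold higher (log2 difference 0.64 ± 0.10 (SE), adjusted p = 3.71e-05), and for KO-1 alone the difference of 0.53 was not called. Lama1 overlapped at day 0, with 1486 and 1705 in WT, 2428 and 1873 in KO-1 and 1114 and 1211 in KO-2, where KO-1 was above KO-2. This difference between the clones was called (log2 difference 0.65 ± 0.07 (SE), adjusted p = 9.25e-05), where 0.0290% of all genes were called. By day 2 it was at 188 to 212 in WT and 179 to 229.7 in KO, and at day 4 it was 2.27-fold lower in KO with a log2 difference of -0.51 that was not called.

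Lamb3 and Lama3 encode laminin chains of epithelia, and both were named after their values were seen. Lamb3 was at 90.6 to 97.8 in WT and 9.35 to 20.9 in KO at day 0 and at 257 and 232 in WT, 2.26 and 6.41 in KO-1 and 1.40 and 0 in KO-2 at day 4 (log2 difference -1.10 ± 0.05 (SE), adjusted p = 5.99e-13). Its 4 KO libraries were all below WT on both days. Lama3 went the other way at day 2, with 201 to 271 in KO against 35.8 to 38.9 in WT (log2 difference 0.67 ± 0.06 (SE), adjusted p = 1.05e-08).

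**Figure D4:**
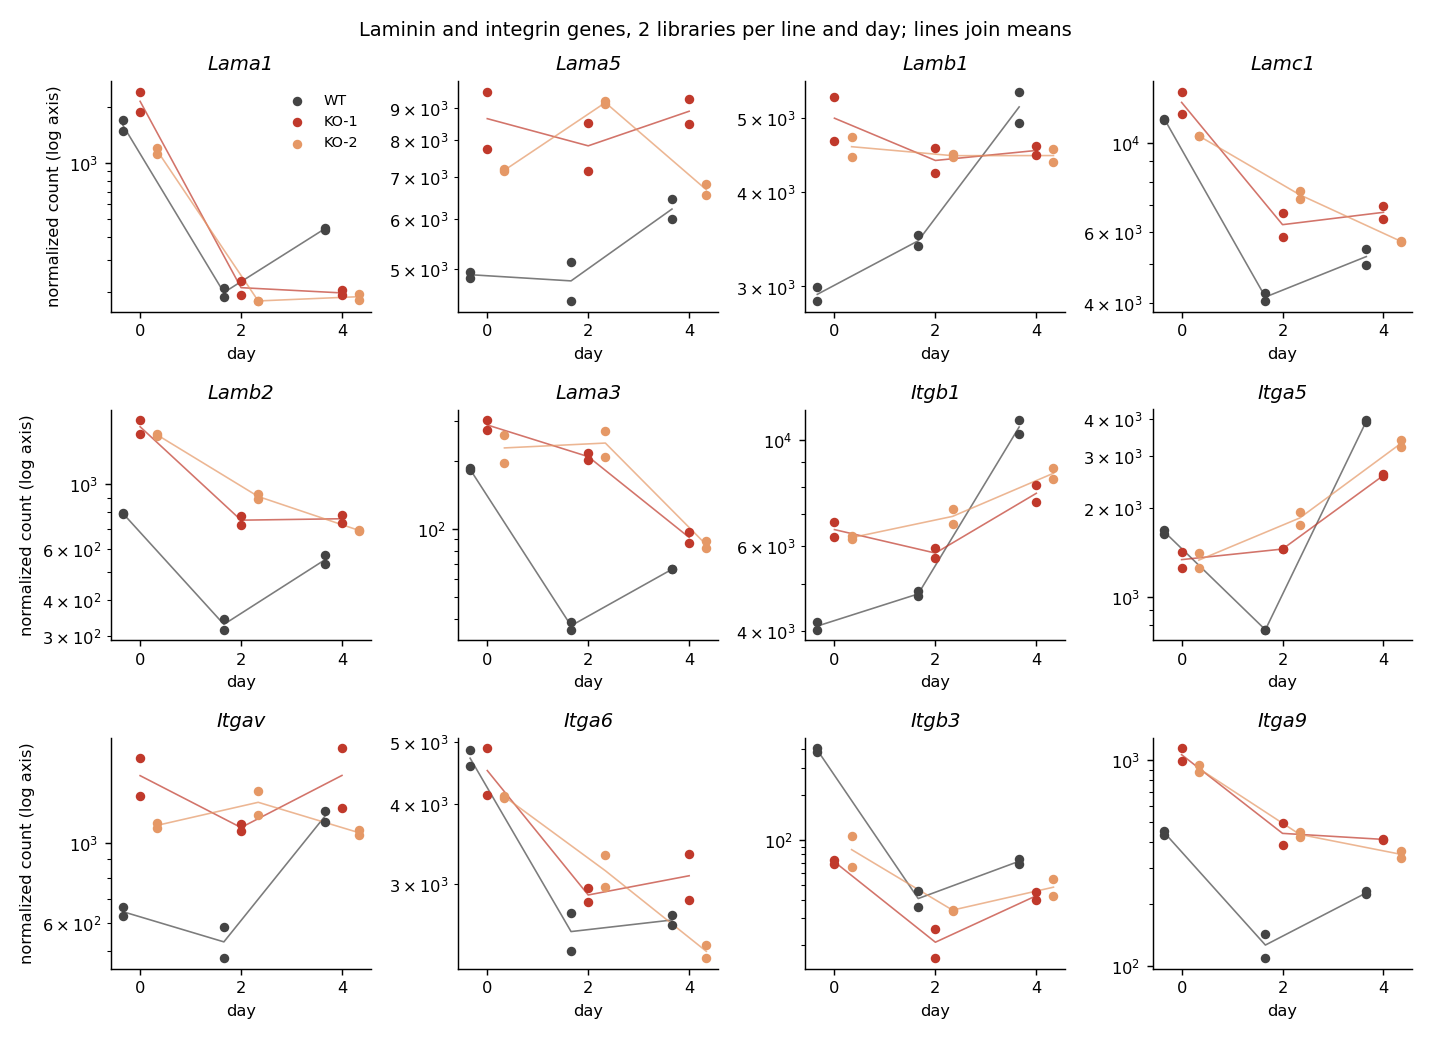
Normalized counts (y axis, logarithmic) of 6 laminin and 6 integrin genes by day (x axis), with each point a library and lines through the means of the 2 replicates of WT (gray), KO-1 (red) and KO-2 (orange). Lama5 and Itgav of KO are above WT at day 0 and day 2, Lama3 of KO is above WT at day 2, and WT Itgb1 rises to 10285 to 11015 at day 4.

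Among the 23 integrin genes, 3 were called higher and 1 lower at day 0 (against 1.73% and 0.879% of all genes), 3 higher and 0 lower at day 2 (against 4.01% and 2.37%), and 0 higher and 2 lower at day 4 (against 3.67% and 3.91%). Itgb1, the beta chain shared by the receptors of collagen, laminin and fibronectin, had the highest level of them, 1003 ± 25.3 normalized counts per kilobase in WT at day 0 (SD, n = 2). The next in that order were Itga6 with 523 ± 21.5 and Itga3 with 400.0 ± 28.7, both alpha chains of laminin receptors, and Itga5 with 336 ± 8.52, the alpha chain of the fibronectin receptor. Neighbors in this order were apart by more than the sum of their SDs. Itgb1 was at 4019 and 4165 in WT, 6742 and 6269 in KO-1 and 6211 and 6306 in KO-2 at day 0, 1.56-fold higher in KO without overlap, and its log2 difference of 0.57 was just under the threshold. At day 4 it was 7424 to 8744 in KO and 10285 to 11015 in WT, with a difference of -0.36 that was not called.

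Itga1, the alpha chain of a receptor for collagens, had the largest fold among the members called higher at day 0. It was at 15.1 and 8.63 in WT, 173 and 124 in KO-1 and 171 and 217 in KO-2, 14.5-fold higher in KO (log2 difference 0.74 ± 0.08 (SE), adjusted p = 3.74e-07 by limma). The KO libraries were also above WT at day 2 (87.8 to 180.2 against 42.1 to 61.9) and day 4 (219 to 282 against 58.4 to 76.4), with log2 differences of 0.36 and 0.56 that were not called. Itgav, an alpha chain of receptors for vitronectin and fibronectin, was at 626 and 662 in WT, 1728 and 1352 in KO-1 and 1137 and 1103 in KO-2 at day 0, 2.07-fold higher (log2 difference 0.66 ± 0.13 (SE), adjusted p = 6.10e-04), and was called again at day 2 (log2 difference 0.72 ± 0.13 (SE), adjusted p = 1.32e-04). The day 0 call was lost without WT replicate 1 (0.64) or KO-1 replicate 1 (0.56) for KO-2 alone (0.50) and in a fit of day 0 alone (0.66). At day 4 it overlapped. Itga9, a receptor chain for tenascin and other ligands, was 2.23-fold higher at day 0 (log2 difference 0.67 ± 0.07 (SE), adjusted p = 1.73e-07) and 3.48-fold at day 2 (log2 difference 0.71 ± 0.07 (SE), adjusted p = 3.02e-08), without overlap on either day. Itgb5, a partner of Itgav, was 1.53-fold higher at day 0 without overlap and not called, with a log2 difference of 0.41.

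Itgb3, the other well-known partner of Itgav, went the opposite way at day 0. It was at 405 and 386 in WT, 73.9 and 68.8 in KO-1 and 106 and 65.4 in KO-2, 5.03-fold lower in KO (log2 difference -0.82 ± 0.05 (SE), adjusted p = 4.63e-10 by limma), and both WT libraries stood far above all others. In WT it was down to 35.8 to 45.4 at day 2 and 69.5 to 74.5 at day 4, where the differences from KO were not called. Itgb8, a partner of Itgav that activates latent TGF-beta, was at most 1.87 at day 0 and at 483 and 444 in WT, 76.7 and 55.8 in KO-1 and 19.6 and 31.9 in KO-2 at day 4. KO libraries were below WT at day 4, by 10.1-fold (log2 difference -1.11 ± 0.07 (SE), adjusted p = 9.01e-11). Itga8, whose protein binds nephronectin and fibronectin, was the other integrin gene called lower, at 421 and 421 in WT, 47.4 and 50.6 in KO-1 and 44.1 and 35.6 in KO-2 (log2 difference -1.03 ± 0.05 (SE), adjusted p = 3.12e-13), and was named after its values were seen. Itga5 was at 772 and 773 in WT, 1448 and 1452 in KO-1 and 1940.4 and 1752 in KO-2 at day 2, 2.13-fold higher in KO (log2 difference 0.74 ± 0.09 (SE), adjusted p = 2.49e-06), but lay below WT in all KO libraries at day 4, where the difference of -0.36 was not called. Of the 4 chains of dedicated laminin receptors (Itga3, Itga6, Itga7 and Itgb4), none was called on any day by limma on the VST values or by limma-voom. By limma 12.2% of all genes were called on at least 1 day, and by limma-voom 13.3%, 23.9% and 23.9% at day 0, 2 and 4. An unadjusted p under 0.05 was found for 2, 1 and 0 of the 4 at these days, against 8150, 10823 and 9142 of all 20703 genes. Itga6 had log2 differences between -0.12 and 0.21.

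Members at low level were described by their counts, since the VST compresses their differences, and the following were chosen after their values were seen. Col11a1, whose chain joins type II collagen in cartilage fibrils, was lower in KO on each day without overlap, while Col2a1 was higher. It was at 106 and 119 in WT, 41.8 and 45.8 in KO-1 and 40.8 and 44.9 in KO-2 at day 0 and at 90.6 and 87.1 in WT, 36.1 and 23.1 in KO-1 and 23.8 and 16.4 in KO-2 at day 4, with log2 differences of -0.31 and -0.35 that were not called on the VST values and were called by limma-voom. Col22a1, a collagen of tissue junctions, was at 80.5 and 71.3 in WT, 0 and 2.56 in KO-1 and 2.80 and 5.47 in KO-2 at day 4 and had the same order at day 0 and day 2.

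Lama4, an alpha chain of the laminins of vessels, overlapped at day 0 and was at 107 and 110.5 in WT, 11.3 and 10.3 in KO-1 and 18.2 and 12.8 in KO-2 at day 4, 8.27-fold lower in KO with a log2 difference of -0.53. Itgal, the alpha chain of the leukocyte receptor LFA-1, was at 29.3 and 16.2 in WT, 97.5 and 109.8 in KO-1 and 133 and 112 in KO-2 at day 2 and at 22.1 and 20.2 in WT, 90.2 and 67.9 in KO-1 and 63.0 and 78.4 in KO-2 at day 4, higher in every KO library than in WT on both days. Itgb7 had a like order, 156 to 241 in KO against 53.8 to 90.8 in WT at day 2, with a log2 difference of 0.43 that was not called, after 586 to 731 and 684 to 722 at day 0, where the genotypes overlapped.

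Genes around the members were counted from lists. Their counts are to be read against the shares of all genes called, 1.73% higher and 0.879% lower at day 0, 4.01% and 2.37% at day 2 and 3.67% and 3.91% at day 4. Of 27 other genes of the basement membrane and matrix in the table, 2 were higher and 0 lower in KO at day 0, 8 higher and 0 lower at day 2, and 2 higher and 5 lower at day 4, with median log2 differences of 0.11, 0.06 and -0.10. Fn1, fibronectin, the ligand of the receptor with Itga5, had the largest VST difference of this list on both later days. At day 2 it was at 3481 and 4195 in WT, 15174 and 17508 in KO-1 and 18019 and 18651 in KO-2, 4.52-fold higher in KO (log2 difference 2.01 ± 0.09 (SE), adjusted p = 1.54e-12 by limma). At day 4 it was at 54170.4 and 49015 in WT, 9136 and 8054 in KO-1 and 7756 and 7707 in KO-2, 6.32-fold lower (log2 difference -2.57 ± 0.09 (SE), adjusted p = 7.55e-15), so that the order of the genotypes was turned with no overlap on either day. The nidogens Nid1 and Nid2, which link laminin to type IV collagen, were 4.31-fold (log2 difference 1.12 ± 0.09 (SE), adjusted p = 6.54e-09) and 3.28-fold (log2 difference 1.54 ± 0.09 (SE), adjusted p = 8.03e-11) higher in KO at day 2, the day on which Col4a1 and Col4a2 were lower.

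Of 32 genes that modify, fold, cut or crosslink collagen, 0 were higher and 1 lower at day 0, 7 higher and 0 lower at day 2, and 0 higher and 5 lower at day 4. Serpinh1, the chaperone HSP47 that folds procollagen, was at 1357 and 1180.0 in WT, 2736 and 2592 in KO-1 and 2984 and 2797 in KO-2 at day 2, 2.19-fold higher in KO without overlap (log2 difference 0.87 ± 0.12 (SE), adjusted p = 8.78e-06 by limma). Loxl4, a lysyl oxidase that crosslinks collagen, was at 1766 and 1756 in WT, 33.8 and 37.2 in KO-1 and 18.2 and 28.3 in KO-2 at day 4 (log2 difference -2.43 ± 0.04 (SE), adjusted p = 1.03e-19 by limma), and P3h2, a prolyl hydroxylase of type IV collagen, was at 16.4 to 57.5 in KO against 437 to 516 in WT (log2 difference -1.21 ± 0.07 (SE), adjusted p = 1.28e-11). Of 32 genes of integrin adhesion and signaling, 1 was higher and 7 lower in KO at day 4, with 0 higher and 1 lower at day 0 and 1 each way at day 2. The lower ones included Parva, an actin-binding partner of integrin-linked kinase, which was 5.04-fold lower (log2 difference -1.43 ± 0.07 (SE), adjusted p = 4.34e-13), Actn1, which crosslinks actin at adhesions, 2.47-fold (log2 difference -1.19 ± 0.06 (SE), adjusted p = 2.56e-12), and Zyx, zyxin of focal adhesions, 2.47-fold (log2 difference -1.12 ± 0.07 (SE), adjusted p = 9.01e-11).

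The courses from day 0 to day 4 were then compared between genotypes. In WT, 12 members rose (15.8%, against 7.68% of all genes) and 10 fell (13.2%, against 6.16%). By VST difference, the largest rises were those of Col5a1 (10.2-fold, log2 difference 2.71 ± 0.07 (SE), adjusted p = 2.49e-17 by limma), Itgb8 (log2 difference 1.57 ± 0.08 (SE), adjusted p = 2.31e-12), Col4a1 (3.23-fold, log2 difference 1.29 ± 0.07 (SE), adjusted p = 4.69e-12) and Itgb1 (2.60-fold, log2 difference 1.26 ± 0.09 (SE), adjusted p = 3.41e-10). The largest falls by the same measure were those of Itgb7, a chain of lymphocyte homing receptors (log2 difference -1.62 ± 0.08 (SE), adjusted p = 4.06e-13), Lama1 (log2 difference -1.15 ± 0.16 (SE), adjusted p = 5.49e-06), Lamc1 (log2 difference -1.05 ± 0.12 (SE), adjusted p = 2.64e-07) and Col5a3 (17.2-fold, adjusted p = 9.96e-12). In KO, 7 rose (9.21%, against 3.44%), led by Col2a1 (10.1-fold, log2 difference 2.32 ± 0.09 (SE), adjusted p = 1.12e-14), and 13 fell (17.1%, against 3.06%), led by Col1a1 (log2 difference -1.72 ± 0.11 (SE), adjusted p = 8.46e-11) and Lama1 (log2 difference -1.66 ± 0.12 (SE), adjusted p = 2.21e-10).

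The difference between the courses was itself tested as an interaction of genotype and day. It was called for 21 members, 4 with a higher KO effect at day 4 than at day 0 (5.26%, against 2.81% of all genes) and 17 with a lower one (22.4%, against 4.13%). The lower ones were led by Col5a1 (log2 difference -2.78 ± 0.09 (SE), adjusted p = 1.85e-15 by limma) and Col1a1 (log2 difference -1.79 ± 0.20 (SE), adjusted p = 5.18e-07), and the higher ones were Col2a1 (log2 difference 2.18 ± 0.15 (SE), adjusted p = 4.59e-10), Col18a1 (log2 difference 1.66 ± 0.10 (SE), adjusted p = 1.08e-10), Col5a2 (0.92) and Itgb3 (0.68). These comparisons share libraries with those of single days and add no independent samples.

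**Figure D5:**
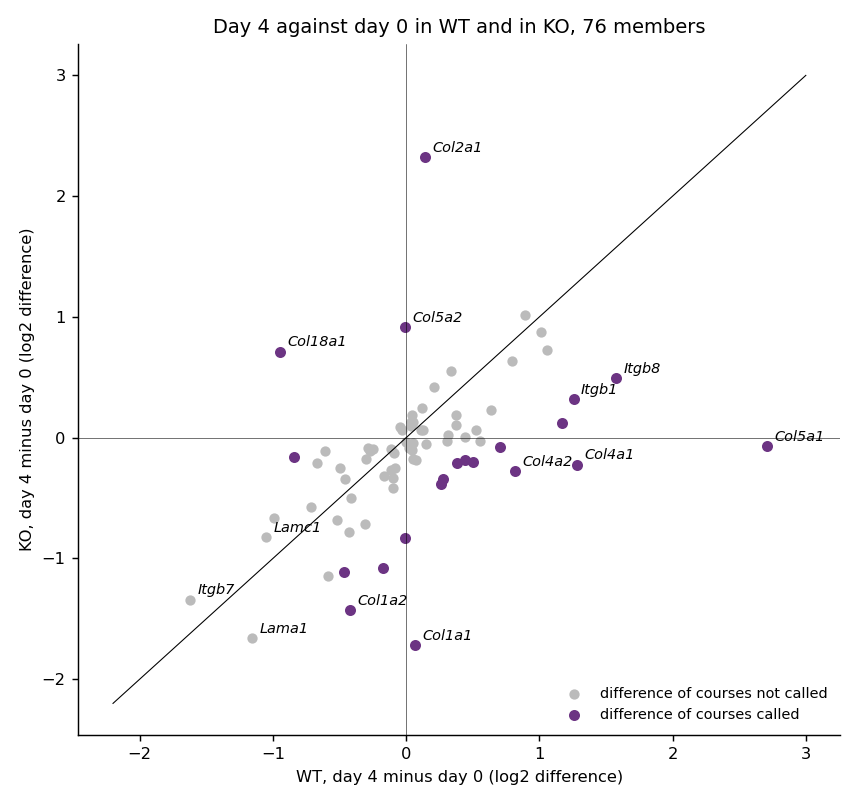
Log2 difference of the VST values between day 4 and day 0 in WT (x axis) and in KO (y axis) for the 76 members. Purple points are the 21 genes whose difference between the courses was called, gray points the others, and the line marks equal courses. Col2a1 and Col18a1 lie above the line, and Col5a1 lies far to the right with 2.71 in WT and -0.07 in KO.

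Since any MEFs were removed at the start of differentiation, the courses were also taken from day 2, a choice made after seeing the data. Whether some MEFs were carried over to the later days was not tested. In WT, 13 members were higher at day 4 than at day 2 (17.1%, against 5.69% of all genes) and 1, Col18a1, was lower (1.32%, against 3.07%). In KO, 7 were higher (9.21%, against 0.923%) and 1, Col9a2, was lower (1.32%, against 0.565%). The interaction was called for 12 members, 10 of them among the 21 above, with 3 higher (3.95%, against 2.15%) and 9 lower (11.8%, against 4.27%). Col5a1 (log2 difference -2.71 ± 0.09 (SE), adjusted p = 2.73e-15 by limma), Col2a1 (log2 difference 1.97 ± 0.15 (SE), adjusted p = 2.81e-09), Col18a1 (1.48), Col5a2 (0.98), Col1a1 (log2 difference -0.91 ± 0.20 (SE), adjusted p = 0.00131), Col4a1 (-0.64), Itgb8 (-0.85) and Itgb1 (-0.73) were among those called from either starting day. Col1a2, Col3a1, Col6a1 and Col6a2, with interactions between -0.64 and -1.01 from day 0, were not called from day 2. These calls are those on the VST values. By limma-voom from day 2, Col1a1 (-1.38, adjusted p = 0.0133) and Col4a1 (-0.50, adjusted p = 0.0137) were not called, whereas Col6a1 was (-2.58, adjusted p = 0.00116).

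By level per length, the members with the highest counts at day 4 differed in order between the genotypes. In WT, Itgb1 stood at 2609.6 ± 126 normalized counts per kilobase of exon, Col5a1 at 1033 ± 36.3 and Itga3 at 831 ± 32.1 (SD, n = 2). Itga5 with 796 ± 10.7 was within the spread of Itga3. In KO, Col18a1 stood at 3151 ± 152, Itgb1 at 1994 ± 135 and Lamc1 at 749.7 ± 75.9 (SD, n = 4). Col2a1 was not the next in that order. Itga3, with a log2 difference from WT of -0.16, was also above it, and members between Lamc1 and Col2a1 are not all given here. Col2a1, at 457 ± 82.2 in KO, was level with Lamb1 at 454 ± 9.64 (SD, n = 4), whereas Col2a1 in WT was at 29.0 ± 4.92.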

How the data were processed

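RNA-seq values of 18 libraries were used. The authors trimmed reads with Trim Galore 0.6.7, aligned them to mm39 with STAR 2.7.11a, counted fragments of primary, nonduplicated alignments on exons with featureCounts 2.0.6, dropped genes with an average count under 1, and deposited the variance stabilized log2 values of DESeq2 1.42.0. A count of 0 is listed as 8.36. Inverting the transformation with that floor gave whole counts for 100% of values, within a relative tolerance of 0.001, with the size factors. Most low counts (74.9% of those up to 20) were even, for a reason not found, so the counts and depths given may exceed the number of fragments. The labels do not give strand, so reads of overlapping or antisense genes cannot be told apart.

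The main test was limma 3.58.1 (R 4.3.3) with a trended prior on the VST values, a mean for each of 6 groups (genotype by day, with KO-1 and KO-2 as one KO group), and p-values adjusted over the 20703 genes by Benjamini-Hochberg. KO-1 and KO-2 were compared in a fit of 9 groups. The 4 KO libraries of a day came from 2 clones, and the labels do not say whether replicates were separate cultures, so p-values describe the spread of these libraries. An exact permutation test of 4 against 2 cannot go below p = 0.0667 and was not used. Genes were named by rule: at each day, up to 8 called members with the largest difference whose KO libraries all lay on one side of WT, the 4 largest rises and falls in WT, members called between clones at day 4, Nsd1, and a set of fibroblast collagens, basement membrane chains, common integrins and Col2a1. Genes outside it were named after their values were seen. Some results are not reported here. Members and lists were chosen with earlier results of these data known. Lengths, positions and neighbors came from GENCODE M21 (GRCm38), which holds all 76 members but is another build than mm39. A length was that of all annotated exons of a gene together, so levels and ratios per kilobase between genes depend on it. Python 3.11.15 was used for tables and figures (matplotlib 3.10.9). On simulated data the inversion and the fit were tested. Alternatives were other scalings, limma-voom on the counts, log2 of the normalized count plus 1, a filter at the 25th percentile, no trend, a replicate block, fits of one day or one clone, and each library left out.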

Additional observations from a re-analysis of the deposited data

Results flagged for a closer look

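For the 30 members named by rule, 90 groups of 4 KO libraries were checked for a library apart from the other 3, and 3 were found, where chance gives about 1 in 20. Itga6 at day 0 was 4892 in KO-1 replicate 1 against 4096 to 4143 in the others. Lamb2 at day 0 was 1670.2 in the same library against 1469.8 to 1496. Itgb8 at day 0 was 1.87 in KO-2 replicate 2 and 0 in the others.

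The effect of the knockout differed between day 0 and day 4, by the interaction term of limma, in 16 of these members, which the rule partly took for large differences (of all genes, 2.81% were higher and 4.13% lower). It was lower at day 4 in Col5a1 (-2.78), Col1a1 (-1.79), Col4a1 (-1.51), Col4a2 (-1.09), Itgb8 (-1.08), Col1a2 (-1.01), Itgb1 (-0.94), Col6a1 (-0.90), Col6a2 (-0.82), Lamb1 (-0.79), Col3a1 (-0.64) and Itgb5 (-0.59), and higher in Itgb3 (0.68), Col5a2 (0.92), Col18a1 (1.66) and Col2a1 (2.18), all as log2 differences of the VST values. From day 2 in place of day 0, Col1a1 was still called on the VST values (-0.91), and Col1a2, Col3a1, Col6a1 and Col6a2 were not. By limma-voom from day 2, Col1a1 was not called (-1.38, adjusted p = 0.0133) and Col6a1 was (-2.58, adjusted p = 0.00116). Cells could be on MEFs at day 0, and the part of a feeder layer was not tested.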

How the results depend on the processing

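The number of members called depended most on the scale. With limma-voom on the counts the 3 days gave 26, 27 and 37 (against 13.3%, 23.9% and 23.9% of all genes), with 43 for WT and 43 for KO between day 0 and day 4 and 2 between the clones. On log2 of the normalized count plus 1 it was 20, 29, 35, 38, 44 and 2. Calls over all 20703 genes rose on that scale too, with 1549 higher and 1118 lower at day 0, 2575 and 2601 at day 2 and 2374 and 2228 at day 4. For the courses and the clones, the shares of all genes on these scales are not given here. Day 2 in place of day 0, chosen after seeing the data, gave 14 in WT, 8 in KO and 12 for the interaction. In the 4 KO libraries of day 4 alone the clones gave 0. With each library left out in turn the counts were 8 to 12 at day 0, 12 at day 2, 12 to 15 at day 4, 20 to 22 in WT, 20 to 22 in KO, 19 to 22 for the interaction and 0 to 1 between the clones. A filter, other scalings, no trend in the prior, fits of one day and single clones kept every other count within 1.5 times the main one. Under limma-voom the median of all genes was at -0.14 at day 2, so differences there are relative to that shift.

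Replicate numbers did not pair the samples: deviations of same-numbered libraries over 10228 genes correlated by -0.05 on average over 36 pairs of groups (-0.62 to 0.64), and 13 pairs were over 0.1. With the replicate block the counts were 11, 12, 12, 22, 20, 21 and 1, as without it. Of 512 values of named members at days with a call, 488 kept their call, 24 lost it and 0 changed sign. Of 928 values at their 58 other gene and day pairs, 47 gained a call, 36 of them with limma-voom or log2 of the count plus 1, and 39 changed sign, none of them called. The depth of 9309874 counts in the shallowest library, which may be fewer fragments, limits what can be said of the 12 members with a mean normalized count under 10. With 2 WT libraries a day, the WT spread is poorly known.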

Other observations

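Integrin genes of leukocytes were present at low counts and differed between replicates of one group at day 0. Itgb2, the beta chain of leukocyte integrins, was at 23.5 and 69.1 in WT, 28.9 and 11.5 in KO-1 and 16.0 and 1.87 in KO-2, and Itgax, the alpha chain of dendritic cells, at 3.35 and 34.5 in WT, 3.21 and 3.27 in KO-1 and 3.55 and 1.87 in KO-2. WT replicate 2 was the highest of the 6 libraries for Itgax. At day 2 Itgb2 was at 117 and 156 in WT, 87.8 and 71.2 in KO-1 and 67.1 and 140.1 in KO-2. Neither gene was called between KO and WT on any day by limma. These genes were picked after their values were seen.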
